A study of Lytechinus variegatus with 8 samples.

Results

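SpAN and blastula protease 10 (BP10) are secreted zinc metalloproteases of the astacin family, and their products were searched for by name in RNA of adult spines of the sea urchin Lytechinus variegatus. Of 26814 genes in the deposited count table, 14 had a product name with protein SpAN (7 genes) or blastula protease 10 (7 genes). The 14 were chosen by product name. LOC121406098 among them was also selected on its measured counts in these libraries, which were far higher in primary spines, so its difference between the spine types is described here without a test. Primary spines are the long spines of a sea urchin and secondary spines the short ones between them. Both kinds were taken from 4 wild-caught animals of wild-type genotype and of the white-and-green color morph, and no treatment is named. A primary library pooled 50 spines of an animal and a secondary library 100 spines, which gave 4 libraries per group. Library numbers 1 to 4 are taken to mark the animals. Libraries held 9252184 to 10902546 counted reads.

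Astacins are made as inactive precursors and cut other proteins after a propeptide is removed. SpAN and BP10 are known from sea urchin blastulae, where their genes are active for a short time and the proteins are secreted. They resemble bone morphogenetic protein 1 (BMP1) and tolloid, astacins that free BMP ligands from the antagonist chordin and process procollagens. In sea urchin embryos SpAN has been reported to act on BMP signalling. Their role in adult spines was not examined here.

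All 14 genes carried the astacin domain in the deposited annotation, and 11 also carried a CUB domain, a module found in many secreted developmental proteins. The genes without a CUB domain were LOC121432267, LOC121414871 and LOC121431557. The deposited Swiss-Prot match did not always follow the product name. LOC121406098 is named SpAN-like and was matched to BP10 of the sea urchin Paracentrotus lividus. LOC121407032 is named BP10-like and was matched to human meprin A subunit beta, an astacin of kidney and gut membranes. LOC121419141 and LOC121425452 were matched to the nematode astacins nas-36 and nas-34. The sequences themselves were not used here, so how far the copies resemble each other, and whether reads could be shared between them, is not known.

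The RNA of the family came almost entirely from 1 gene. LOC121406098 took 14236 of the 14816 reads on the 14 genes, or 96.1%. Reads were seen on 12 genes, 7 of them with fewer than 10 reads in all 8 libraries together, and 2 had 0 reads. A filter on low counts (filterByExpr of edgeR) left 3 of the 14 for testing, and the 11 others held 165 reads together. A gene passes such a filter through the group in which it is high, so those 3 do not stand for the family.

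**Figure D1:**
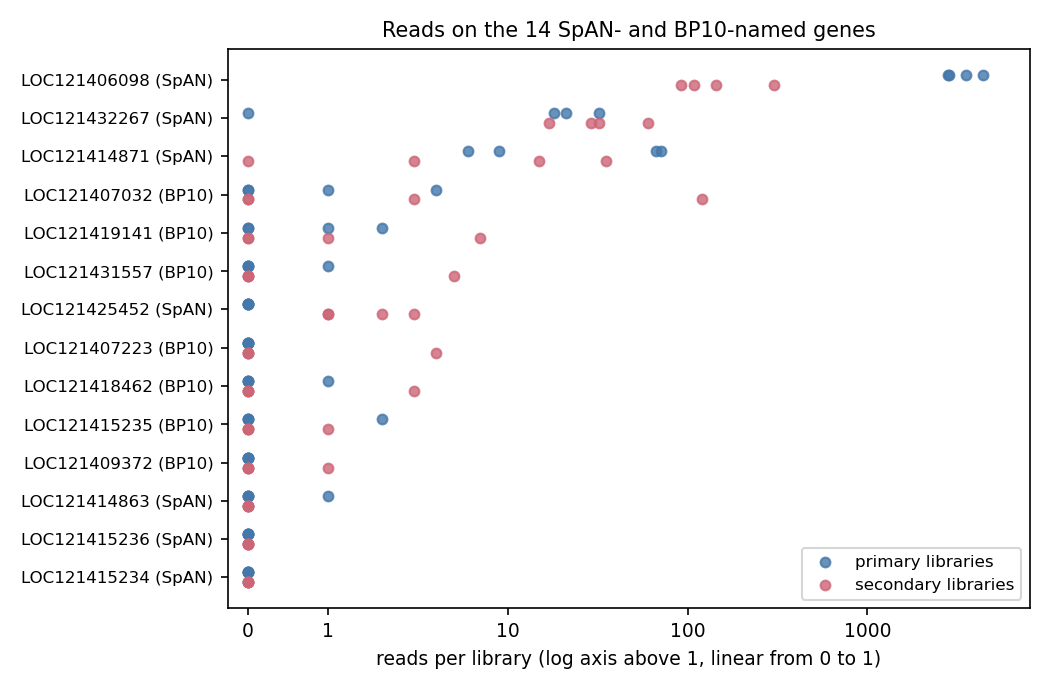
Reads per library (horizontal axis, logarithmic above 1) on each of the 14 SpAN- and BP10-named genes, ordered by mean level per length. Each point is a library. LOC121406098 lies at 2794 to 4397 reads in primary and 92 to 302 reads in secondary libraries, and every other gene stays at or below 120 reads in each library.

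LOC121406098 lies on chromosome 19, from 22952598 to 23003321 of assembly Lvar_3.0, on the minus strand, with 5139 bases of counted exon length in the deposited table. Its level in depth-scaled counts (CPM, scaled between libraries by TMM) was 381, 438, 301 and 298 in primary libraries 1 to 4. In secondary libraries 1 to 4 it was 29.3, 9.36, 10.8 and 12.7 CPM. The lowest primary library was thus 10.2 times the highest secondary library, and the groups did not overlap. Groups without overlap were seen for 15.2% of the tested genes.

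LOC121406098 averaged 355 ± 67.6 CPM over the primary and 15.5 ± 9.27 CPM over the secondary libraries (SD, n = 4), a ratio of 22.8. Within animals 1 to 4 the primary library had 13.01, 46.9, 27.8 and 23.6 times the CPM of the secondary library. The primary libraries differed among themselves by up to 1.47 times and the secondary libraries by up to 3.13 times. Secondary library 1 accounted for most of that spread. Without it, the secondary mean was 10.9 ± 1.65 CPM and the ratio of the means 32.4. In whole-spine RNA, fewer cells of a type and less RNA per cell cannot be told apart.

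Per length, in reads scaled for gene length and depth (RPKM), LOC121406098 reached 58.1 to 85.3 in primary libraries. That placed it between rank 568 and rank 779 among all 26814 genes. In secondary libraries it had 1.82 to 5.70 RPKM and ranks from 7980 to 13264. Among 16788 tested genes, 2 had a more negative log2 fold change than this gene. It was selected for that difference, so this place is a description only.

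**Figure D2:**
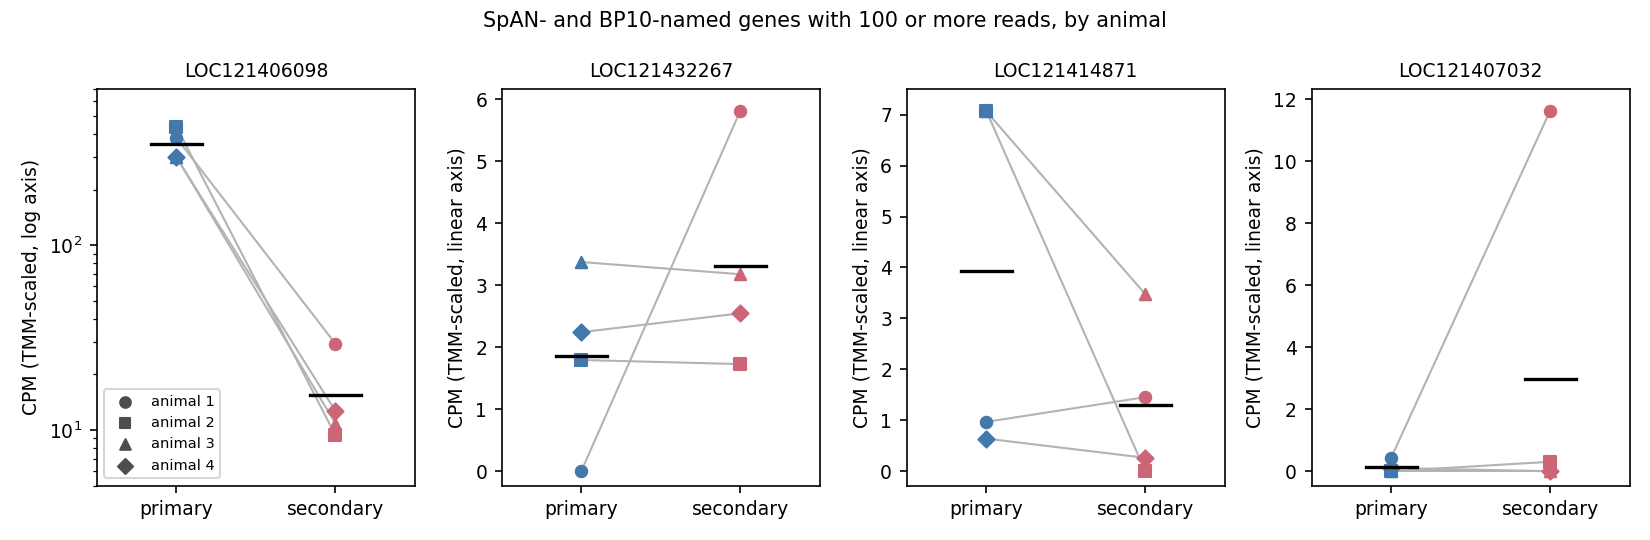
TMM-scaled CPM of the 4 SpAN- and BP10-named genes with over 100 reads in all; lines join the 2 libraries of an animal, symbols mark the animal, and black bars are group means. LOC121406098 (log axis) lies at 298 to 438 CPM in primary and 9.36 to 29.3 CPM in secondary libraries, while the other 3 genes (linear axes) overlap between the groups.

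The other 2 genes that passed the filter were not called, and their groups overlapped. SpAN-like LOC121432267 (chromosome 18, 4832792 to 4839768) had 0, 1.79, 3.37 and 2.24 CPM in primary libraries 1 to 4. Its secondary libraries had 5.82, 1.73, 3.18 and 2.55 CPM. In animals 2 to 4 both libraries were alike, and in animal 1 the primary library had 0 reads and the secondary library 60. The log2 fold change (secondary minus primary) was 0.84 ± 0.91 (standard error) and the gene was not called (edgeR quasi-likelihood test, adjusted p = 0.742, and 0.514 with the replicate block). With animal 1 left out of the blocked fit, the log2 fold change was 0.014.

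SpAN-like LOC121414871 (chromosome 1, 43654745 to 43673153) differed more between animals than between spine types. Primary libraries 1 to 4 had 0.968, 7.08, 7.07 and 0.641 CPM. Secondary libraries 1 to 4 had 1.45, 0, 3.48 and 0.264 CPM. Animal 3 was high in both libraries, and animal 2 was high in the primary library with 71 reads and had 0 reads in the secondary library. The log2 fold change was -1.60 ± 1.22 (edgeR adjusted p = 0.589, and 0.283 with the replicate block). It lay between -2.76 and -1.15 when any 1 library was left out, and at -0.55 when animal 2 was left out of the blocked fit (-1.56 with all animals).

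Setting LOC121406098 aside, edgeR thus called 0 of 2 tested members, with 0 at an unadjusted p below 0.05 and 0 called by DESeq2. Over all tested genes 7.81% were called, made up of 5.88% with the higher level in secondary spines and 1.93% with the higher level in primary spines. With 2 genes, that share gives nothing to compare.

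BP10-like LOC121407032 (chromosome 2, 1571102 to 1625820) was a case of 1 library. It had 120 reads in secondary library 1, 3 reads in secondary library 2 and 0 reads in the other secondary libraries. Primary libraries 1 to 4 had 4, 0, 0 and 1 reads. In CPM this was 11.6 in secondary library 1 against at most 0.430 in any other library. The gene failed the filter on low counts. When tested without that filter it was not called (log2 fold change 4.36 ± 2.10, edgeR adjusted p = 0.394), and with the replicate block and no filter it was (4.01 ± 1.04, edgeR adjusted p = 0.0296). An uncharacterized gene on the same strand, LOC121407033, overlaps it and had 43 primary and 23 secondary reads. Reads of overlapping genes may not have been told apart.

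SpAN-like LOC121425452 (chromosome 12, 28894169 to 28948431) had 0 reads in the primary libraries and 2, 3, 1 and 1 reads in secondary libraries 1 to 4. With 3 reads over the 4 primary libraries taken as the floor, its secondary level was 2.14 times that floor. The counting error of the secondary reads is not included, so this is no lower limit of the difference. BP10-like LOC121419141 had 3 primary and 8 secondary reads, 7 of the latter in library 3. BP10-like LOC121431557 had 1 primary and 5 secondary reads, all 5 in library 3. BP10-like LOC121407223 had 4 reads, all in secondary library 1. BP10-like LOC121418462 had 1 primary and 3 secondary reads, and LOC121415235 had 2 and 1. LOC121409372 and the SpAN-like LOC121414863 had 1 read each. These genes, LOC121425452 included, had too few reads for a test, and differences were not resolved at this depth.

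SpAN-like LOC121415236, LOC121414863 and LOC121415234 and BP10-like LOC121415235 lie next to each other on chromosome 5 (9961591 to 10030676), within 69.1 kilobases and with 0 other genes between them. That run held 4 reads in the 8 libraries. LOC121415236 and LOC121415234 had 0 reads, which allows up to 0.0786 CPM over the primary and 0.0721 CPM over the secondary group. LOC121431557 and LOC121432267 are neighbours on chromosome 18, 19.1 kilobases apart on the same strand, with 6 and 209 reads.

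LOC121406098 stands alone on its chromosome. Its neighbours lie 11.4 and 10.5 kilobases away on the other strand, and neither was called (edgeR adjusted p = 0.380 and 0.830). The left-hand neighbour, LOC121405717, named for the ras-related growth inhibitor RERG, was called with the replicate block, at a higher level in secondary libraries (log2 fold change 0.71, edgeR adjusted p = 0.0352), the opposite direction to the SpAN gene. A called neighbour of another member was the uncharacterized LOC121407031, 9.07 kilobases from LOC121407032, with 146 primary and 700 secondary reads (log2 fold change 2.15 ± 0.26, edgeR adjusted p = 0.00225). That was the 1 call among 12 neighbours tested, against 7.81% of all tested genes. With the replicate block 4 of the 12 were called, against 24.1% of all tested genes. They were the 2 above, calbindin-32-like LOC121407034 beside LOC121407032 (log2 fold change -0.68, edgeR adjusted p = 0.0398) and adenosine receptor A2b-like LOC121415237 beside LOC121415234 (0.33, edgeR adjusted p = 0.0418).

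Ordered by mean level per length, LOC121406098 came first with 69.0 ± 13.2 RPKM in primary spines. The next member there, LOC121432267, had 1.31 ± 0.994 RPKM, and the ratio between them was 52.6. In secondary spines the same 2 genes had 3.02 ± 1.80 and 2.35 ± 1.25 RPKM. In secondary library 3 LOC121432267, with 2.25 RPKM, lay above LOC121406098, with 2.11 RPKM, so the order of the first 2 did not exceed their spread in secondary spines. LOC121414871 and LOC121407032 followed with overall means of 0.747 and 0.734 RPKM and ranges that overlapped. All other members had overall means below these, at 0.0755 RPKM or less.

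As a share of reads on the family, LOC121406098 held 99.6, 98.0, 96.6 and 99.0% in primary libraries 1 to 4. In secondary libraries it held 59.9% (95% Wilson interval 55.6 to 64.1%), 79.3% (71.1 to 85.7%), 57.7% (50.5 to 64.5%) and 79.6% (73.1 to 84.8%). The 13 other genes together had 16 to 101 reads in primary and 24 to 202 reads in secondary libraries, so their sums overlapped between the groups.

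The astacin domain was annotated in 23 genes in all, the 14 above and 9 others. The leading ones among the 9 were a pair of nas-13-like zinc metalloproteinases, the uncharacterized LOC121406855 and a BMP1 homolog. LOC121406098 made up 34.4 to 38.1% of the summed RPKM of the 23 genes in primary libraries and ranked first in all 4. In secondary libraries it made up 2.67 to 4.00% and took rank 5 or 6. There the nas-13-like LOC121407074 ranked first in 3 libraries and its neighbour LOC121407072 in library 1. The summed level of the 23 genes was 188 ± 36.2 RPKM in primary and 86.5 ± 38.0 RPKM in secondary spines. Without the SpAN- and BP10-named genes it was 117 ± 24.4 and 79.0 ± 32.3 RPKM, and those ranges overlapped. That smaller sum was 140, 135, 98.3 and 93.4 RPKM in primary libraries 1 to 4. In secondary libraries 1 to 4 it was 126, 56.8, 72.6 and 60.3 RPKM, so it was lower in the secondary library of each animal.

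**Figure D3:**
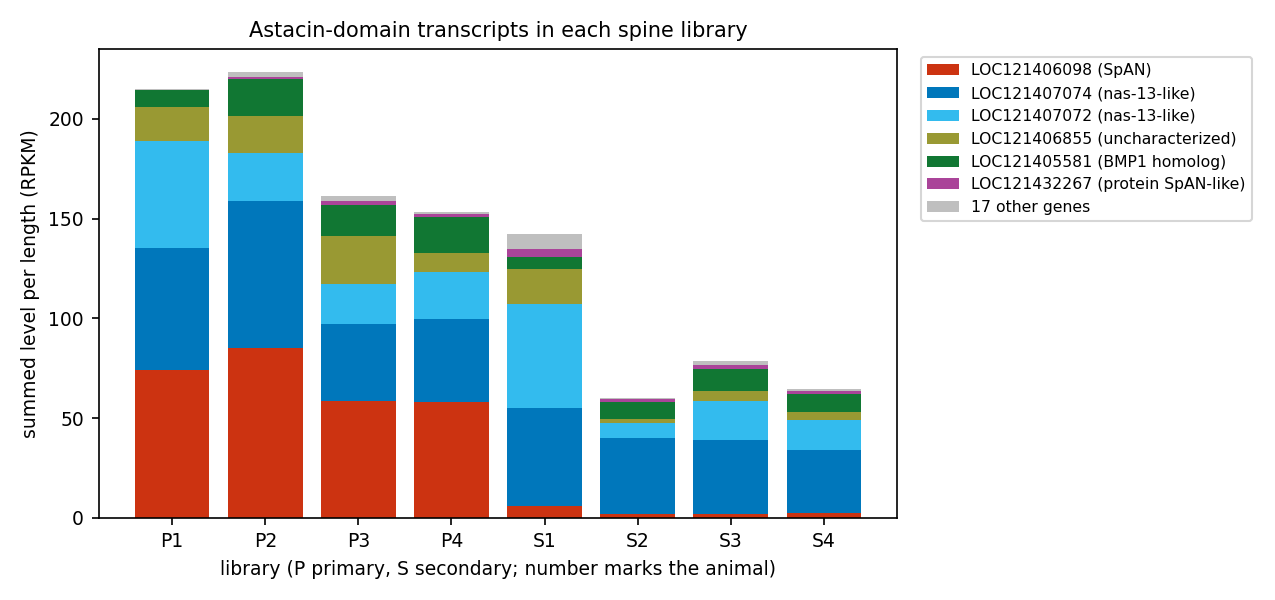
Summed level per length (RPKM) of the 23 genes with an annotated astacin domain in each library, split into the 6 genes with the highest mean and 17 other genes. The red segment, LOC121406098, spans 58.1 to 85.3 RPKM in primary and 1.82 to 5.70 RPKM in secondary libraries.

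The nas-13-like LOC121407074 (chromosome 2, 3153268 to 3174189) had 162, 194, 101 and 110.0 CPM in primary and 131, 102, 97.7 and 83.0 CPM in secondary libraries 1 to 4. The groups overlapped, although the secondary library was lower in each of the 4 animals. The gene was not called (log2 fold change -0.46 ± 0.24, edgeR adjusted p = 0.360, and -0.42 ± 0.14, 0.0661, with the replicate block). LOC121407072 beside it had 109 CPM in primary library 1 and 106 CPM in secondary library 1, and 14.7 to 49.9 CPM in the other 6 libraries. Both libraries of animal 1 thus lay above the rest. The secondary library was the lower one in each of the 4 animals, by 0.042, 1.75, 0.068 and 0.61 on the log2 scale, and the gene was not called (log2 fold change -0.37 ± 0.58, edgeR adjusted p = 0.845, and -0.59 ± 0.29, 0.202, with the replicate block).

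The BMP1 homolog LOC121405581 (chromosome 18, 16038617 to 16085043), of the procollagen-processing branch of the family, had 46.6, 101, 85.3 and 100.1 CPM in primary libraries 1 to 4. The secondary libraries had 32.1, 48.5, 58.9 and 47.6 CPM. The secondary library was lower in each of the 4 animals, although the groups overlapped because animal 1 was low in both. The gene was not called without the pairing (log2 fold change -0.83 ± 0.28, edgeR adjusted p = 0.123) but with the replicate block it fell from primary to secondary (-0.80 ± 0.13, edgeR adjusted p = 0.00395). DESeq2 also called it without the block (adjusted p = 0.0404), and leaving out primary library 1 gave an edgeR adjusted p = 0.0303.

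LOC121406855, an uncharacterized gene matched to nematode nas-15, had 83.0, 89.9, 117 and 46.9 CPM in primary and 86.4, 9.86, 25.7 and 20.03 CPM in secondary libraries 1 to 4. Secondary library 1 again stood above the other secondary libraries. The gene was not called (log2 fold change -1.25 ± 0.62, edgeR adjusted p = 0.333). Without secondary library 1 it fell in secondary spines by 2.18 ± 0.42 on the log2 scale (edgeR adjusted p = 0.0258), and without animal 1 in the blocked fit by 2.18 ± 0.39 (edgeR adjusted p = 0.0279). With all libraries and the replicate block, DESeq2 called it (-1.65, adjusted p = 0.0381) and edgeR did not (-1.60 ± 0.59, adjusted p = 0.121).

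By product name, 14 further genes belong to the astacin, tolloid and meprin names, of which 4 were tested. Several of them, such as neuropilin and tolloid-like genes, carry CUB domains and no astacin domain. Of the 4, edgeR called 0, although 1 had an unadjusted p below 0.05, with the lower level in secondary spines, and DESeq2 called that number too. Of all 16788 tested genes, 1375 had an unadjusted p below 0.05 in that direction and DESeq2 called 767. With the replicate block 1 was called, the BMP1 homolog, against 24.1% of all tested genes. The median log2 fold change of the 4 was -0.42, against -0.026 over all tested genes. The nas-39-like LOC121426250, which has CUB domains but no annotated astacin domain, had 34.8 CPM in secondary library 1 and 6.33 to 13.5 CPM elsewhere (log2 fold change 0.79 ± 0.42, edgeR adjusted p = 0.374).

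Among secondary libraries, library 1 held the highest secondary level of 8 of the 11 astacin-domain genes with 10 or more secondary reads, LOC121406098 among them. Over all 16788 tested genes it held the highest secondary level of 25.2%. LOC121407032, LOC121430084 and LOC121418120 reached 10 secondary reads only with the reads of library 1. The tested genes passed another filter, so these shares cannot be compared. Among marker lists fixed by name, the summed CPM of 11 muscle genes was 1678 in secondary library 1 and 1124 to 1256 in the other secondary libraries. Primary libraries, at 1243 to 1765, covered the same range. Neuron markers summed to 2580 CPM in secondary library 1 and to 2000 to 2316 CPM in the other secondary libraries. The skeletogenic, coelomocyte, pigment cell and gonad or gut sums were highest in another secondary library. Among primary libraries, the muscle and neuron sums were highest in library 1 too. Within animals the muscle sum was lower in the secondary library in 4 of 4. Of the 11 muscle genes 10 were tested, and 2 were called with the higher level in secondary spines (5.88% of all tested genes were) and 0 with the lower. With the replicate block these counts were 2 and 1. The part of muscle or neurons in the level of secondary library 1 was not tested. Skeletogenic markers, the msp130 and spicule matrix genes that define spine-forming cells, were present in both groups with summed CPM of 196 to 1100.3 over primary and 224 to 1407 over secondary libraries. Of 19 such genes 3 had 0 reads, and of 13 tested 0 were called by edgeR. Group ranges of summed CPM overlapped for neuron markers (2359 to 2994 in primary, 2000 to 2580 in secondary), coelomocyte markers (2933 to 4122 and 2578 to 4404), pigment cell markers (74.2 to 162 and 79.5 to 147) and gonad or gut markers (2442 to 4595 and 2041 to 2956), and their part in the results was not tested. Within animals, the neuron sum and the gonad or gut sum were lower in the secondary library in 4 of 4. The coelomocyte sum was lower there in 3 of 4, the pigment cell sum in 2 of 4 and the skeletogenic sum in 1 of 4. With the replicate block, genes called with the higher level in primary spines went from 0 to 4 of 9 for gonad or gut, from 1 to 9 of 20 for coelomocytes and from 0 to 1 of 16 for neurons, against 11.7% of all tested genes. Those with the higher level in secondary spines went from 1 to 2 for coelomocytes and from 2 to 5 for neurons, against 12.4%.

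BMP signalling was examined because SpAN and its relatives are known to act on it in embryos. Of 27 genes named for BMP and related ligands, antagonists, receptors and Smads, 20 were tested, and edgeR called 1 higher and 1 lower in secondary spines (4 and 2 at an unadjusted p below 0.05, 2 and 1 with DESeq2, 5 and 2 with the replicate block). Over all genes, edgeR called 5.88% and 1.93% in these directions without the block, and 12.4% and 11.7% with it. Of all 16788 tested genes, 1869 and 1375 had an unadjusted p below 0.05 in these directions, and DESeq2 called 1400 and 767. The median log2 fold change of the 20 was -0.057. The list was formed by words in the names. It therefore also took in smad nuclear interacting protein 1-like genes, which carry an FHA domain and are not Smads, and follistatin-related genes.

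Among ligands, BMP2-like LOC121432040 (chromosome 18, 7404649 to 7414829) had 1, 0, 2 and 0 reads in primary and 32, 23, 11 and 32 reads in secondary libraries. Secondary over primary CPM came to 29.97 (exact 95% counting interval 9.96 to 148) and the gene was called (edgeR adjusted p = 0.0121). It passed the filter on low counts only through the secondary group, where it is high, so the call adds little to the read counts themselves. The secondary library was higher in 4 of 4 animals. BMP2/4 (LOC446159), the ligand of the dorsoventral axis in sea urchin embryos, averaged 5.64 ± 0.904 CPM in the primary group against 6.93 ± 1.01 CPM in the secondary group (edgeR adjusted p = 0.605). Of the myostatin branch, growth/differentiation factor 8-like LOC121423561 had 53.7, 70.2, 42.6 and 38.5 CPM in primary and 9.02, 16.4, 24.0 and 12.2 CPM in secondary libraries. The groups did not overlap and it was called lower in the secondary group (-1.73 ± 0.33 on the log2 scale, edgeR adjusted p = 0.0136), a call that leaving out secondary library 4 ended (edgeR adjusted p = 0.0510). Univin, a ligand of sea urchin embryos, had 0 reads in all libraries.

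The chordin-like gene LOC121427607, named for the antagonist that BMP1 and tolloid cleave, averaged 54.4 ± 13.04 CPM in the primary group and 44.2 ± 5.61 CPM in the other, without a call (log2 difference -0.30 ± 0.19, edgeR adjusted p = 0.480). Chordin-like protein 1 (LOC121429913) had 1.055 to 3.53 CPM in primary and 3.66 to 6.24 CPM in secondary libraries. Its groups did not overlap, and it was called with the replicate block (1.20 ± 0.27 on the log2 scale, edgeR adjusted p = 0.0174) and not without it (1.16 ± 0.42, edgeR adjusted p = 0.157). By name, 4 genes with alpha-2-macroglobulin or CD109 in the product were tested and edgeR called 0. An unadjusted p below 0.05 was seen for 2, DESeq2 called 1 and the replicate block 2, all with the lower level in secondary spines. In that direction edgeR called 1.93% of all tested genes without the block and 11.7% with it. Of the 16788 tested genes, 1375 had an unadjusted p below 0.05 in that direction and DESeq2 called 767. One of the pair called with the block, LOC121431951, is an alpha-2-macroglobulin receptor-associated protein and no protease inhibitor (-0.33 ± 0.089 on the log2 scale, edgeR adjusted p = 0.0333). The other, LOC121411263, named for C3 and PZP-like domains, had 75.7 to 118 CPM in primary and 49.2 to 74.6 CPM in secondary libraries, with no overlap (-0.58 ± 0.11, edgeR adjusted p = 0.00762 with the block and 0.108 without it). The alpha-2-macroglobulin-like LOC121429148, whose vertebrate relatives trap proteases, had 499 ± 190.2 and 432 ± 155 CPM (edgeR adjusted p = 0.871). The 50 kDa hatching enzyme-like LOC121431986, of another metalloprotease family that is active in the same blastulae, had 2 primary reads and 1 secondary read.

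**Figure D4:**
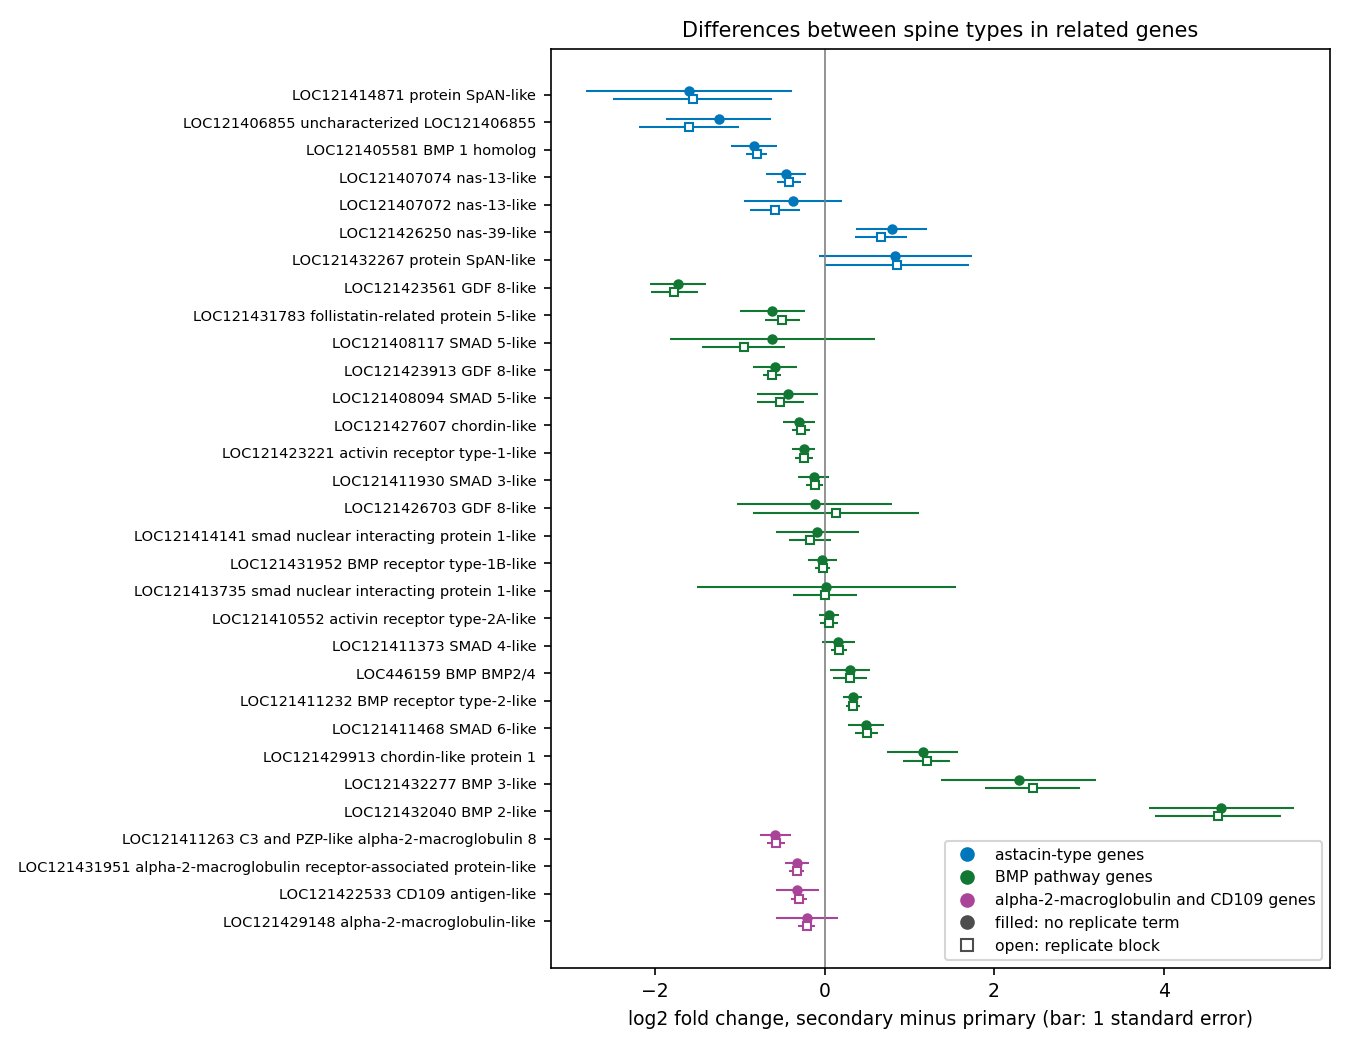
Log2 fold changes (secondary minus primary, bars of 1 standard error) of the tested genes of the astacin, BMP and alpha-2-macroglobulin lists, without (filled) and with (open) a replicate term. LOC121406098 is left out because its difference chose it. BMP2-like LOC121432040 at 4.68 and growth/differentiation factor 8-like LOC121423561 at -1.73 were called with and without the replicate term. The BMP1 homolog LOC121405581 at -0.80 was called with it alone, as were LOC121411232, LOC121429913, LOC121432277, LOC121411468 and LOC121423913 of the BMP list and LOC121431951 and LOC121411263 of the alpha-2-macroglobulin list.

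The genes whose log2 CPM most resembled LOC121406098 over the 8 libraries, among 10406 tested genes with an informative name and a mean of 5 CPM or more, were integrin alpha-V-like LOC121426066 (Pearson r = 0.988), ubiquitin-conjugating enzyme E2 E1-like LOC121423683 (0.981), the methionine sulfoxide reductase MsrB-like LOC121410527 (0.976), aminopeptidase N-like LOC121411282 (0.975) and alanine--tRNA ligase-like LOC121407390 (0.974). These libraries are 4 animals sampled in both spine types, and the spine type separates both groups of the SpAN gene, so the likeness is a description. By Spearman correlation none of these 5 was among the 20 genes at the top. Their differences were also far smaller. Integrin alpha-V-like LOC121426066 averaged 181 ± 9.74 CPM in the primary and 102 ± 4.99 CPM in the secondary group, against the ratio of 22.8 for the SpAN gene.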

How the data were processed

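Whole numbers of reads per gene were deposited as counts by the authors, with FPKM values of the same 26814 genes. Per the submitters' processing notes HISAT2 2.0.5 and featureCounts were used. The strand setting and the treatment of reads with several alignments are not given in the sources used here. All 26814 gene IDs and starts matched the RefSeq gene table of assembly Lvar_3.0, which gave chromosome numbers. The deposited FPKM equalled counts divided by length and a constant of the library, and served to check the order of levels and the ratio of LOC121406098.

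Groups came from the titles. Counts were tested with edgeR 4.0.16 in R 4.3.3 (glmQLFit, robust, glmQLFTest; TMM; filterByExpr, 16788 genes), group as the only term, two-sided, Benjamini-Hochberg adjustment over all tested genes, threshold 0.05. Standard errors were derived from the fold change and the F statistic. The code of the fit was run on simulated counts with the same spread for all genes and no differences between animals. Those settings are unlike these libraries, so that run does not measure how well the fit works on them. RPKM are TMM-scaled CPM per kilobase of the deposited gene length. Intervals and floors (3 counts) cover counting error only.

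The design text says that both spine types came from the same 4 animals. Deviations of log2 CPM (prior count 2) from group means had correlations of 0.733 to 0.811 where primary and secondary numbers matched and of -0.317 to -0.200 where they did not, so numbers were taken to mark animals, and a fit with the replicate block was run beside the main one. No library repeats another (chi-square per gene, within groups, 35.2 to 57.3).

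The genes and lists were chosen with earlier results of these data known. The text names all 14 genes, up to 6 called genes of the astacin and BMP lists, the 3 most abundant astacins, called neighbours, and the 5 genes most like LOC121406098. LOC121406855, LOC121426250, LOC121407033, LOC121405717, LOC121407034, LOC121415237, LOC121411263, LOC121431951, LOC121407973, LOC121430084, LOC121418120, BMP2/4, univin, chordin-like, alpha-2-macroglobulin-like and hatching enzyme-like genes were named after their values were seen. Alternatives were DESeq2 1.42.0, the block, other scalings, no filter, leaving out libraries or animals, and list definitions.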

Additional observations from a re-analysis of the deposited data

Results flagged for a closer look

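In groups of 4 libraries, a library was set apart when its gap to the nearest other exceeded Dixon's 95% critical share of the group's range. Chance gives this in about 1 of 20 groups of normally distributed values. A group with reads in only 1 library always meets the rule, so the number of groups set apart cannot be compared with that rate. Of 34 groups examined, 14 held such a library, 10 of them on fewer than 10 reads. Secondary library 1 stood apart at 29.3 CPM for LOC121406098, at 11.6 CPM for LOC121407032 and at 34.8 CPM for nas-39-like LOC121426250. Primary library 1 stood apart at 109 CPM for nas-13-like LOC121407072, whose secondary library of the same animal was equally high.

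The others rest on 1 to 7 reads. In secondary library 1 they were LOC121407223 at 0.388 CPM and LOC121415235 at 0.0970 CPM. In secondary library 3 they were LOC121419141 at 0.695 CPM and LOC121431557 at 0.497 CPM, and in secondary library 4 LOC121418462 at 0.264 CPM and LOC121409372 at 0.0878 CPM. In primary library 1 they were LOC121415235 at 0.215 CPM and LOC121414863 at 0.108 CPM, and in primary library 2 LOC121431557 and LOC121418462 at 0.0997 CPM each.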

How the results depend on the processing

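The log2 fold change of LOC121406098 stayed between -5.02 and -4.34 when a library was left out and between -4.96 and -4.34 when an animal was left out of the replicate block. Of the other SpAN- and BP10-named genes 0 were called in each alternative except the replicate block without a filter, which called 1, LOC121407032. LOC121407072 changed sign without primary library 1 (0.051), and lay as low as -1.12 without secondary library 1. The astacin list by product name had 1 gene called higher in primary spines with the replicate block, with DESeq2, with DESeq2 and the block, and with the block and no filter, and 0 to 1 when a library was left out. In the main fit, forming that list by Swiss-Prot match or by the astacin domain, the latter chosen after seeing the data, changed no count. In other fits the astacin domain adds LOC121406855, which is not in the list by product name. That gene was called by DESeq2 with the block (adjusted p = 0.0381) and by edgeR without secondary library 1 (adjusted p = 0.0258). BMP genes called higher in secondary spines were 5 with the replicate block, 2 with DESeq2, 5 with DESeq2 and the block, 2 with scaling by library size and 4 with the block and no filter, 1 to 1 without a library and 1 to 4 without an animal; those higher in primary spines were 2 in the 3 blocked fits, 0 to 2 without a library and 2 to 3 without an animal. Over all tested genes, 987 and 324 were called higher in secondary and primary spines, 2077 and 1964 with the replicate block, 2106 and 1990 when DESeq2 held the block, 2070 and 1968 in the unfiltered blocked fit, 767 higher in primary spines with DESeq2, and 168 with scaling by library size. Without a library these counts were 718 to 877 and 158 to 254, and without an animal in the blocked fit 1402, 1536, 1644 and 1826 (secondary) and 977, 1072, 1220 and 1395 (primary). By Spearman correlation 0 of the 5 genes most like LOC121406098 were shared. The order of the 14 genes by level was the same with the deposited FPKM. The cause of these changes was not tested. Of the 14 genes, 11 failed the filter on low counts. LOC121407032 among them had 120 of its 128 reads in secondary library 1, and depth limits the others.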

Other observations

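Several genes were read in both libraries of 1 animal and hardly elsewhere. The tolloid-like protein 2 gene LOC121407973, matched to cubilin, had 42 reads in primary and 46 reads in secondary library 4, 2 reads in secondary library 3 and 0 in the other 5 libraries. In all, 175 genes had 10 or more reads in both libraries of an animal and at most 3 in the other 6 together, 37, 47, 57 and 34 of them in animals 1 to 4. In each of the 12 pairings of a primary library with a secondary library of another number, 0 genes met the same criterion.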
